A study of Mus musculus with 9 samples.

Results

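The 10 genes described here encode enzymes that remove superoxide and hydrogen peroxide, together with the thioredoxin that feeds electrons to several of them. They are Sod1, Cat, Gpx1, Gpx4, Prdx1, Prdx2, Prdx3, Prdx5, Prdx6 and Txn1. They were taken by gene name from the tables of 42188 genes measured by RNA sequencing in 9 mouse livers, and all 10 were found and passed the filter on low counts. All mice were labelled wild-type 8-week-old males of 20 to 25 g (C57BL/6J in the husbandry text, C57BL/6 in the strain tag), with 3 libraries in each of 3 groups. Control mice received phosphate-buffered saline by tail vein. ConA mice received 20 mg/kg of ConA (concanavalin A, a plant lectin that provokes T cell driven hepatitis in mice) by tail vein. MSA_ConA mice received 250 mg/kg of MSA, taken here as the mesaconate of the study's title, into the peritoneum 6 h before the same ConA dose. Livers of treated mice were taken 12 h after ConA, so a single dose and a single time stand for the model, and the labels name an intraperitoneal injection for MSA_ConA only. The study's title names oxidative stress as its subject, and these enzymes are the first line of its handling.

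Superoxide, which leaks from the respiratory chain and is made by activated phagocytes, is turned into hydrogen peroxide and oxygen by superoxide dismutases. Hydrogen peroxide is then split by catalase in peroxisomes, or reduced by glutathione peroxidases at the cost of glutathione and by peroxiredoxins at the cost of thioredoxin. Liver is rich in all of these enzymes because its peroxisomes and mitochondria produce peroxide continuously, and part of the set is inducible through the transcription factor NRF2, which binds antioxidant response elements.

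The promoters of 3 of the genes are shown because they frame the results: Prdx1 and Sod1 held the core of the antioxidant response element, and Cat, whose level in the libraries numbered 1 changed most between groups, did not. Each line gives the 250 bases before the RefSeq gene start on build GRCm38.p6, 5′ to 3′ on the gene's own strand, with matches to TGACNNNGC or its reverse complement in capitals. The windows are chr4:116685349-116685598 (plus strand) for Prdx1, chr16:90220512-90220761 (plus strand) for Sod1 and chr2:103485154-103485403 (minus strand) for Cat.
Prdx1: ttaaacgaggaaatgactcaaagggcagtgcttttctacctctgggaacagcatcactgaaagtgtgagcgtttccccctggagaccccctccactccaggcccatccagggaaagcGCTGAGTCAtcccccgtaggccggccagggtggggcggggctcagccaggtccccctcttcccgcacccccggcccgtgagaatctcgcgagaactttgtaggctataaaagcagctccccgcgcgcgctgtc
Sod1: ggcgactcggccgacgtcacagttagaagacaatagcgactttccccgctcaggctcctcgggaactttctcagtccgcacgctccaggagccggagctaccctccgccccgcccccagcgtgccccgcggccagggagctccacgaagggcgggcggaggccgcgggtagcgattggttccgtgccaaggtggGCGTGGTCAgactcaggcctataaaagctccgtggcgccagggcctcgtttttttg
Cat: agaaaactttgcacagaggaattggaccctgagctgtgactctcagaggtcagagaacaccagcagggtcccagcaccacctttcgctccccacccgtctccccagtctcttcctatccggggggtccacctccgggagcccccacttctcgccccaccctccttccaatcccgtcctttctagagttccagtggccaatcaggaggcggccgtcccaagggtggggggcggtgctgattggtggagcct
The core stood 133 bases before the start of Prdx1 and 56 bases before that of Sod1, read on the opposite strand in both. Of the 9 genes with a promoter entry, these 2 held it within 250 bases before to 50 bases after the start, against 14.0% of the 27025 genes in the table. A match describes the letters only, and Prdx6 had no entry. These 2 genes went opposite ways in the treated livers numbered 2 and 3 described below, where Prdx1 lay above and Sod1 below both Control livers, though neither passed the adjusted threshold in edgeR.

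The libraries did not fall into the 3 labelled groups. In every group the library numbered 1 stood apart from those numbered 2 and 3, in scaling factor (0.571 to 0.95 against 1.11 to 1.26) and in genes with a count (16890 to 17950 against 19147 to 20482), although total counts were alike (13294600 to 17276391). Levels are given as CPM, counts scaled to library size. Xist, the transcript of the inactive X chromosome of females, lay between 667 and 1132 CPM in 6 livers, which did not match their male label, while Control 1, ConA 1 and MSA_ConA 1 had 0.0746, 0.485 and 0.132 CPM. The mitochondrial transhydrogenase Nnt, of which C57BL/6J mice lack several exons, divided the same way, with 168 to 266 CPM in those 6 livers against 29.8 to 34.7 CPM. Hepatocyte markers were high in every library, with all 7 of those in the table detected. Because of this division, each comparison was made over all 9 libraries and again within number 1 and within numbers 2 and 3. Not every one of these values is printed for every member. The part of sex or substrain in the division was not tested. Fewer cells of a type and less RNA per cell cannot be told apart in bulk liver.

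Per length of transcript, the most abundant of the 10 in Control livers were Gpx1, Sod1 and Cat. On the deposited FPKM scale (a level that divides counts by gene length and library size) Gpx1 measured 1685 ± 516 (SD, n = 3), Sod1 1666 ± 838 and Cat 1030 ± 254, whose spreads overlapped. A middle tier held Txn1 at 216 ± 130, Prdx1 at 190 ± 18.8, Prdx6 at 143 ± 12, Gpx4 at 141 ± 76.1 and Prdx5 at 135 ± 106. The lowest levels were those of Prdx3 at 83.9 ± 3.35 and Prdx2 at 45.9 ± 13.6. Of neighbours in this order, Cat and Txn1, Prdx1 and Prdx6, and Prdx3 and Prdx2 had ranges of mean ± SD that did not overlap, and the other pairs overlapped. In counts, the 10 genes together took 0.518 to 1.07% of a library, and single values rested on 867 to 47425 counts. Counting error was not small beside the spread between livers in every case. In ConA, Prdx6 lay within 628 to 644 CPM, on 6546 to 12170 counts.

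None of the 10 enzymes passed the test between the labelled groups when all 9 libraries were compared. ConA against Control gave log2 fold changes from -0.47 (Prdx2) to 0.16 (Prdx1), MSA_ConA against ConA from -0.45 (Txn1) to 0.24 (Prdx2), and MSA_ConA against Control from -0.54 (Cat) to 0.35 (Prdx1). By edgeR's quasi-likelihood test with Benjamini-Hochberg adjustment over 14603 genes, the smallest adjusted p of a member was 0.9997, 0.9999 and 0.951 in these 3 comparisons. No gene of any kind passed an adjusted p of 0.05 in any of the 3 (0% called in each), while 563, 248 and 730 genes had an unadjusted p under 0.05, none of them a member; DESeq2 called 2, 0 and 55 genes. Values of the compared groups overlapped for all 10 members in all 3 comparisons, whereas 12.3%, 4.88% and 13.8% of all tested genes had groups that did not overlap. With library totals in place of TMM the same held except for Gpx1 in MSA_ConA against Control, where 11.8% of genes did not overlap. For Sod1 the 95% interval of ConA against Control ran from -2.08 to 1.48 on the log2 scale, and for Prdx5 from -2.35 to 2.04. For Prdx3 it ran from -0.73 to 0.54, and for Prdx6 from -0.81 to 0.54.

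**Figure D1:**
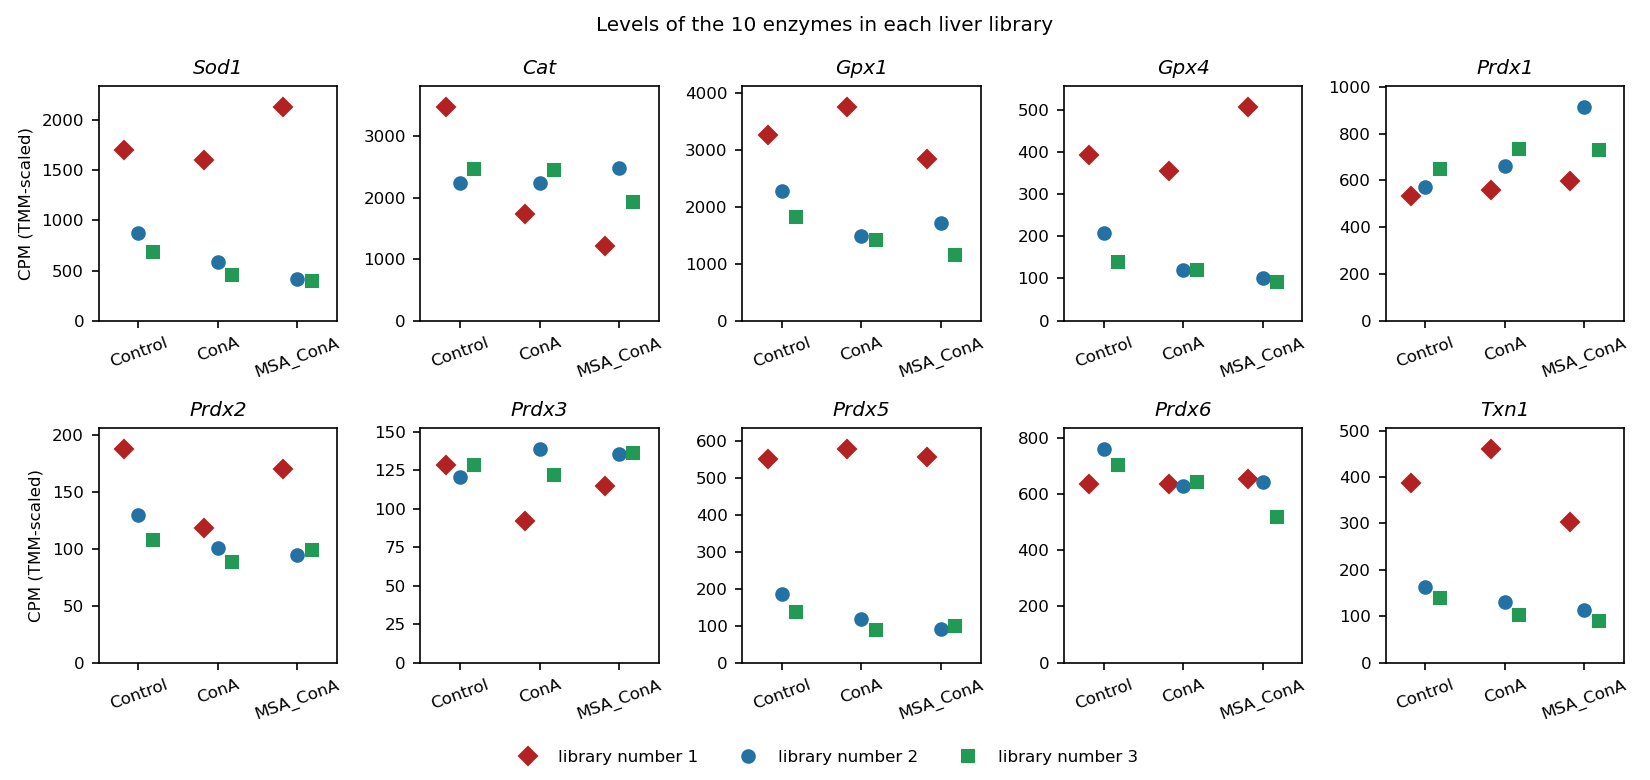
Level of each enzyme in CPM (scaled by TMM, linear axis from 0) in the 9 libraries, by group on the horizontal axis and by library number as marker. Sod1, Gpx1, Gpx4, Prdx5 and Txn1 were higher in the 3 libraries numbered 1 than in the 6 others (with library totals, Sod1 and Prdx5 of these 5), while Cat in number 1 went from 3469 in Control to 1740 in ConA and 1212 in MSA_ConA.

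Sod1 encodes the cytosolic copper and zinc superoxide dismutase and lies on chromosome 16 at 94102668 to 94108248 (plus strand, in the coordinates of the C57BL/6NJ strain assembly that the deposited tables use, as for all members below). It measured 1703, 875 and 689 CPM in Control 1, 2 and 3, 1606, 588 and 454 CPM in ConA, and 2130, 418 and 392 CPM in MSA_ConA. The 3 libraries numbered 1 were the highest, without overlap. Across groups, Sod1 was higher in number 1 than in numbers 2 and 3 by 1.74 on the log2 scale (SE 0.26, edgeR adjusted p = 0.0022), a comparison in which 38.3% of all tested genes were called. In the Control livers alone, where no ConA was given, the difference was 1.12 (SE 0.23, adjusted p = 0.0140; 27.8% of genes called), and without Control 3 it was 0.97 with an adjusted p of 0.0759.

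Within the libraries numbered 2 and 3, Sod1 was lower in every treated library than in either Control library. MSA_ConA was lower than Control by 0.95 on the log2 scale (SE 0.20), with an adjusted p of 0.0884, and ConA was lower by 0.58 (SE 0.20, unadjusted p = 0.0204, adjusted p = 0.431). No gene was called among numbers 2 and 3 in any of the 3 comparisons (0% in each; 1648, 786 and 3482 genes at an unadjusted p under 0.05). DESeq2, which called 24, 2 and 690 genes there, gave Sod1 an adjusted p of 0.00021 in MSA_ConA against Control. In number 1 the corresponding differences of Sod1 were 0.32 (SE 0.28, adjusted p = 0.397; -0.41 with library totals, adjusted p = 0.267) for MSA_ConA against Control and -0.08 (SE 0.28, adjusted p = 0.834) for ConA against Control. The difference between the number classes in the step from ConA to MSA_ConA was 0.77 (SE 0.34, adjusted p = 0.156), against 18.7% of all genes called in that test.

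Mitochondrial superoxide dismutase, Sod2, has no named row, but 3 unnamed gene models carry its description in the deposited annotation, and they are given as neighbours of the set. A model on chromosome 17, described with the first domain of manganese superoxide dismutase, measured 57.3, 40.8 and 39.1 CPM in Control, 386, 32.0 and 27.4 CPM in ConA, and 93.5, 24.5 and 27.6 CPM in MSA_ConA. A model on an unplaced scaffold, described with the C-terminal domain, measured 25.6, 35.6 and 40.4 CPM, then 119, 37.4 and 38.5 CPM, then 55.4, 37.6 and 37.5 CPM. Both were highest in ConA 1, and next highest in MSA_ConA 1. In number 1, where each comparison sets 1 liver against 1 liver, both models were higher in ConA than in Control by 2.75 and 2.22. They were lower in MSA_ConA than in ConA by 2.05 and 1.11. In numbers 2 and 3 the ConA changes were -0.43 (edgeR adjusted p = 0.431) and 0.00 (adjusted p = 0.999). The difference between the classes was 3.18 and 2.22, and it also rests on the single livers numbered 1. The remaining model overlaps the scaffold model on the opposite strand and reached 43.4 CPM in MSA_ConA 1, so reads of these 2 models may not be separable.

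Catalase was the member whose level changed most between groups within 1 number class. Cat (chromosome 2, 108976734 to 109007829, minus strand) encodes the heme enzyme that splits hydrogen peroxide in peroxisomes. It measured 3469, 2239 and 2468 CPM in Control, 1740, 2233 and 2451 CPM in ConA, and 1212, 2483 and 1932 CPM in MSA_ConA. Control 1 was the highest of the 9 libraries and MSA_ConA 1 and ConA 1 were the lowest.

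In number 1, Cat fell by 1.0 on the log2 scale in ConA against Control (SE 0.27, edgeR adjusted p = 0.022) and by 1.52 in MSA_ConA against Control (SE 0.27, adjusted p = 0.00475). With library totals the falls were 1.49 and 2.25 (adjusted p = 0.0021 and 0.000458). These are comparisons of single livers, in a fit where each is assumed to vary like the libraries numbered 2 and 3, and 42.0% and 38.7% of all genes were called in them. Between MSA_ConA and ConA in number 1 the difference was -0.52 (SE 0.27, adjusted p = 0.182; 28.4% of genes called), and with library totals in place of TMM it was -0.76 with an adjusted p of 0.0405. Cat's share of the summed FPKM of the 10 genes, which no choice of library scaling alters, was 17.6% in Control 1, 9.40% in ConA 1 and 6.59% in MSA_ConA 1. It was 18.5 to 28.3% in the 6 other libraries, but there the sum was smaller (2711 to 4548, against 7105 to 7495 in number 1). Control 1 thus had the highest Cat level, at 1319 FPKM, with a lower share than those 6.

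Over the groups together, Cat in number 1 differed from numbers 2 and 3 by -0.21 (SE 0.29, adjusted p = 0.594), and without Control 1 by -0.66 with an adjusted p of 0.0317. In numbers 2 and 3, Cat differed from Control by -0.01 in ConA (SE 0.19, adjusted p = 0.992) and by -0.09 in MSA_ConA (SE 0.19, adjusted p = 0.797). The test of the difference in the ConA effect between the classes gave -0.99 (SE 0.33) with an adjusted p of 0.0558, short of the threshold, in a test where 31.1% of all genes were called. That call depended on the choice of tool and library: the adjusted p was 0.0158 with DESeq2, 0.00571 with library totals, 0.0346 without MSA_ConA 2 and 0.0359 without MSA_ConA 3.

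Markers of some other cells moved with these libraries. The monocyte and neutrophil list (7 genes in the table) summed to 389 CPM in ConA 1 with all 7 detected, 56.1 CPM in MSA_ConA 1 and 10.7 CPM in Control 1 with 5 detected in each (Ly6g at 0 in both), and 5.26 to 9.25 CPM in the 6 others. The cholangiocyte list summed to 784 CPM in ConA 1 and 48.8 to 116 CPM elsewhere. Erythroid markers, relevant because red cells carry much Cat, Prdx2 and Sod1, summed to 118, 181 and 107 CPM in Control 1, ConA 1 and MSA_ConA 1, and 24.3 to 114 CPM in the others. The 6 adipocyte markers summed to 15.9, 144 and 494 CPM in Control 1, ConA 1 and MSA_ConA 1, with Plin1, Adipoq and Lep at 0 in all 3, and hepatocyte markers to 113664, 112602 and 183813 CPM. The 6 Kupffer cell markers summed to 347, 197 and 121 CPM in the same 3 libraries, in the order of Cat, and to 177 to 291 CPM in the others. The 6 stellate cell markers summed to 216, 348 and 146 CPM, and to 242 to 691 CPM in the others, with all 6 of both lists detected in every library. T and NK cell markers summed to 6.26, 6.60 and 3.83 CPM in Control 1, ConA 1 and MSA_ConA 1. Endothelial cell markers summed to 181, 176 and 136 CPM there. In the others these lists summed to 3.43 to 5.28 CPM and 192 to 253 CPM. Neither list was much higher in ConA 1 than in Control 1. The part of these markers in the changes of Cat was not tested.

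Gpx1 and Gpx4, both selenoproteins that use glutathione, shared the division by number. Gpx1 (chromosome 9, 113285315 to 113286755, plus strand), the general cytosolic and mitochondrial glutathione peroxidase, measured 3269, 2282 and 1828 CPM in Control, 3747, 1478 and 1417 CPM in ConA, and 2837, 1718 and 1147 CPM in MSA_ConA. It was higher in number 1 by 1.02 (SE 0.23, edgeR adjusted p = 0.0105). With library totals in place of TMM, which shifted the median of all genes by -0.71, the difference was 0.29 with an adjusted p of 0.277, so the call for Gpx1 rests on the scaling. In Control alone it was 0.67 (adjusted p = 0.113; 0.0484 with DESeq2 and 0.0409 without MSA_ConA 3).

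Gpx4 (chromosome 10, 83405561 to 83417218, plus strand) reduces lipid hydroperoxides in membranes and guards against ferroptosis. Its levels were 393, 208 and 139 CPM in Control, 355, 121 and 119 CPM in ConA, and 506, 101.5 and 92.7 CPM in MSA_ConA. Number 1 exceeded numbers 2 and 3 by 1.73 (SE 0.25, edgeR adjusted p = 0.00202), and by 1.18 in Control alone (adjusted p = 0.0130; 0.0514 without Control 3). Within numbers 2 and 3, MSA_ConA was lower than Control by 0.84 (SE 0.20, adjusted p = 0.0949; 0.00697 with DESeq2), and Gpx4, like Sod1, fell into the strict order Control above ConA above MSA_ConA in all 6 libraries, an order shared by 6.87% of tested genes. In number 1, MSA_ConA differed from Control by 0.37 with TMM and by -0.37 with library totals (adjusted p = 0.345 and 0.344), so the direction depends on the scaling.

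Among the peroxiredoxins, Prdx5 alone was higher in number 1 without overlap. Prdx5 (chromosome 19, 4083504 to 4086913, minus strand), found in mitochondria, peroxisomes and cytosol, showed the largest number contrast of the 10: 551, 184 and 138 CPM in Control, 577, 118 and 89.0 CPM in ConA, and 558, 90.2 and 98.1 CPM in MSA_ConA. The 3 libraries numbered 1 lay within 551 to 577 CPM with TMM, whereas as a share of all counts they held 0.0523, 0.0388 and 0.0318% in Control, ConA and MSA_ConA, and MSA_ConA against Control in number 1 was -0.72 with library totals (adjusted p = 0.0961). Number 1 exceeded the others by 2.29 (SE 0.22, 4.88-fold, edgeR adjusted p = 0.000521), and by 1.77 in Control alone (SE 0.24, adjusted p = 0.00397). Among numbers 2 and 3 it was lower than Control by 0.64 in ConA (unadjusted p = 0.0162, adjusted p = 0.431) and by 0.78 in MSA_ConA (adjusted p = 0.104; 0.0103 with DESeq2).

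Prdx2 (chromosome 8, 89198294 to 89203541, plus strand), a cytosolic peroxiredoxin abundant in red cells, had lower levels: 187, 130 and 108 CPM in Control, 118, 101 and 88.4 CPM in ConA, and 170, 94.5 and 99.3 CPM in MSA_ConA. The number contrast of 0.60 (SE 0.18, adjusted p = 0.0271) turned to -0.12 (adjusted p = 0.673) with library totals, and its call was lost with no filter (0.118) and when any of Control 3, ConA 3 or the 3 MSA_ConA libraries was left out (adjusted p = 0.0612 to 0.0901). In number 1 it fell by 0.66 in ConA against Control (SE 0.22, adjusted p = 0.0466), a call also lost with limma-voom (0.0559), with relative log expression factors (0.0508) and without ConA 2, ConA 3, MSA_ConA 2 or MSA_ConA 3 (0.0591 to 0.0659). The end of Prdx2 overlaps Rnaseh2a on the opposite strand by 181 bases, and Prdx5 overlaps Trmt112 by 409 bases. Whether counting used strand is not given in the sources used here, but these neighbours held at most 357 and 245 counts in a library against at least 1218 and 1566 for the members.

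Prdx1, Prdx3 and Prdx6 did not pass the test between the number classes with TMM. Prdx1 (chromosome 4, 122152825 to 122168095, plus strand), the NRF2-inducible cytosolic peroxiredoxin, measured 532, 570 and 651 CPM in Control, 561, 661 and 734 CPM in ConA, and 597, 913 and 728 CPM in MSA_ConA. It was lower in both Control libraries than in all 4 treated ones among numbers 2 and 3, alone of the members with TMM (16.7% of tested genes were ordered so) and together with Prdx3 with library totals (23.2%), with a difference of 0.43 in MSA_ConA against Control (SE 0.18, edgeR adjusted p = 0.2). In number 1 its ConA difference was 0.08 (SE 0.25, adjusted p = 0.834), and -0.42 with library totals (adjusted p = 0.136).

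Prdx3 (chromosome 19, 62930765 to 62941195, minus strand), the mitochondrial peroxiredoxin, lay within 114 to 138.5 CPM in 8 libraries and measured 92.2 CPM in ConA 1. That lower value gave a ConA difference of -0.48 in number 1 (SE 0.20, edgeR adjusted p = 0.0899), which became -0.97 (adjusted p = 0.00654) with library totals, where the median of all genes moved by -0.49. In numbers 2 and 3 the difference was 0.07 (SE 0.14, adjusted p = 0.852).

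Prdx6 (chromosome 1, 172154466 to 172165568, minus strand), which also acts as a phospholipase, had the smallest number contrast with TMM. It measured 634, 758 and 702 CPM in Control, 635.5, 628 and 644 CPM in ConA, and 652, 642 and 517.5 CPM in MSA_ConA, and number 1 differed from the others by -0.01 (SE 0.18, edgeR adjusted p = 0.973). With library totals, Prdx1, Prdx3 and Prdx6 were lower in number 1 by 1.02, 0.93 and 0.73 (edgeR adjusted p = 0.0093, 0.0185 and 0.0126), so the size and the call of these differences depend on the scaling. Over all alternatives Prdx1 ran from -1.02 to -0.26 and Prdx3 from -0.93 to -0.10. Prdx6 ran from -0.73 to 0.07, so its sign also varied.

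Txn1 (chromosome 4, 58788728 to 58801711, minus strand) encodes the cytosolic thioredoxin that reduces oxidized peroxiredoxins. It measured 387, 164 and 139 CPM in Control, 459.5, 130 and 102 CPM in ConA, and 302, 113 and 89.7 CPM in MSA_ConA. Number 1 exceeded the others by 1.65 (SE 0.20, edgeR adjusted p = 0.00108), and by 1.35 in Control alone (adjusted p = 0.00729; 0.0521 without Control 3). In number 1, ConA differed from Control by 0.25 with TMM and by -0.25 with library totals (adjusted p = 0.497 and 0.472), and MSA_ConA differed from ConA by -0.61 (SE 0.27, adjusted p = 0.137). With library totals Sod1, Gpx4, Prdx5 and Txn1 kept their calls in the number contrast.

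In all, 6 of the 10 enzymes were higher in number 1 and none was lower with TMM, where 19.1% of all tested genes were called higher and 19.2% lower. With library totals 4 were higher and 3 lower, where 7.42% of all genes were called higher and 37.3% lower. Values of 5 (Sod1, Gpx1, Gpx4, Prdx5 and Txn1) did not overlap between the number classes with TMM, against 34.0% of all tested genes. With library totals Sod1 and Prdx5 stayed above without overlap, Prdx1, Prdx3 and Prdx6 lay below without overlap, and Gpx1, Gpx4 and Txn1 overlapped, against 41.8% of genes without overlap. The division also varied with gene length: the median log2 difference of tested genes went from 0.33 in the shortest of 5 length bins of about equal gene number (24 to 1758 bases) to -0.43 in the longest (6414 to 116467 bases), and the share called higher from 30.0% to 10.3%. Sod1 (646 bases), Txn1 (1052), Gpx1 (1441) and Gpx4 (1724) are in the shortest bin, but so is Prdx3 (1478), whose difference was -0.23. Prdx5 (2139 bases) and Cat (2613) are in the next bin, with differences of 2.29 and -0.21. The part of gene length in the division was not tested.

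**Figure D2:**
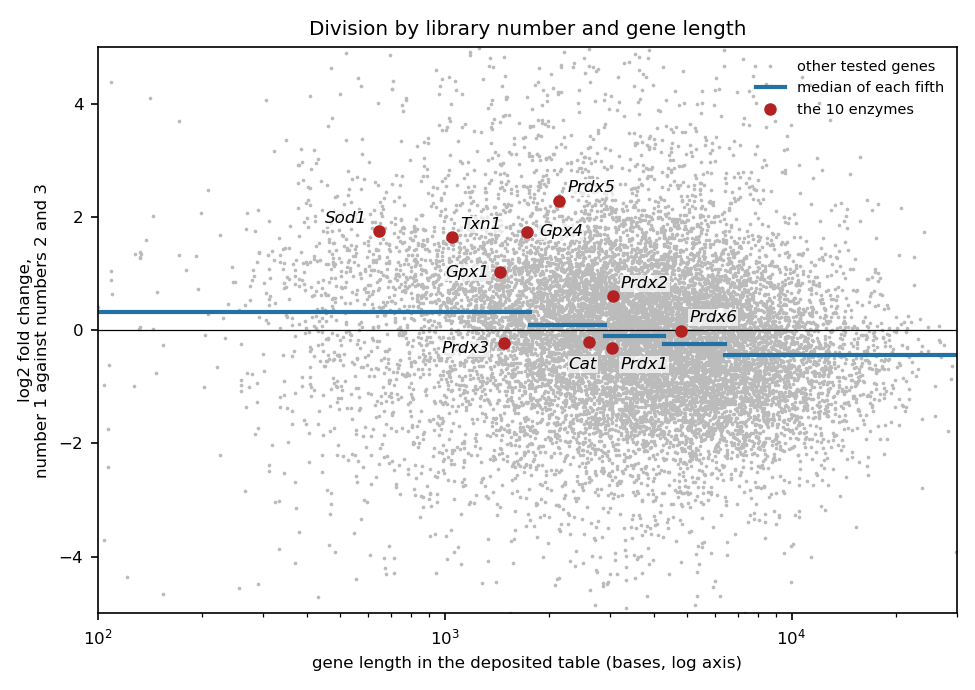
Log2 fold change of number 1 against numbers 2 and 3 (vertical axis) against gene length in bases (log axis), with tested genes in grey, the median of each length bin in blue and the 10 enzymes in red; 323 genes lie outside the axes. Prdx5 stands at 2.29 and Sod1, Gpx4 and Txn1 at 1.65 to 1.74, above the medians of 0.33 and 0.09 of their bins, while Prdx3, Cat, Prdx1 and Prdx6 lie at or just below 0.

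Among the livers numbered 2 and 3, 7 of the 10 enzymes (Sod1, Gpx1, Gpx4, Prdx2, Prdx5, Prdx6 and Txn1) were higher in both Control libraries than in all 4 treated ones, an order found in 17.9% of tested genes. With library totals it held for 6, Prdx2 being the exception, and for 12.4% of genes. The members' median difference was -0.36 in ConA and -0.43 in MSA_ConA against Control, beside 0.02 and 0.03 for all tested genes, and no member passed the adjusted threshold in edgeR. Sod1, Gpx4 and Prdx5 passed it in MSA_ConA against Control with DESeq2, and with no filter on low counts (adjusted p = 0.0124, 0.0191 and 0.0303, where 1009 genes were called). The 2 Control values come from only 2 livers, and both comparisons use them. The 7 enzymes ran together in these 6 libraries, which their shared order there in part fixes in advance. Pearson's r of log2 CPM went from 0.60 (Prdx2 with Prdx6) to 0.97 (Prdx2 with Prdx5). They are therefore not 7 separate observations. Skeletal muscle markers moved with this order: the list of 12 summed to 2.30 and 0.885 CPM in Control 2 and 3, to 358 and 62.0 CPM in ConA 2 and 3, and to 338 and 4640 CPM in MSA_ConA 2 and 3, with 11 of 12 detected in the 4 treated libraries (Tnnc2 at 0). Stellate cell markers were also higher in the treated livers, at 254 and 242 CPM in Control 2 and 3, 302 and 298 CPM in ConA, and 291 and 691 CPM in MSA_ConA. The 6 adipocyte markers summed to 13.1, 7.96, 101, 9.21, 9.69 and 126 CPM in the same 6 libraries. Their part in the order was not tested.

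**Figure D3:**
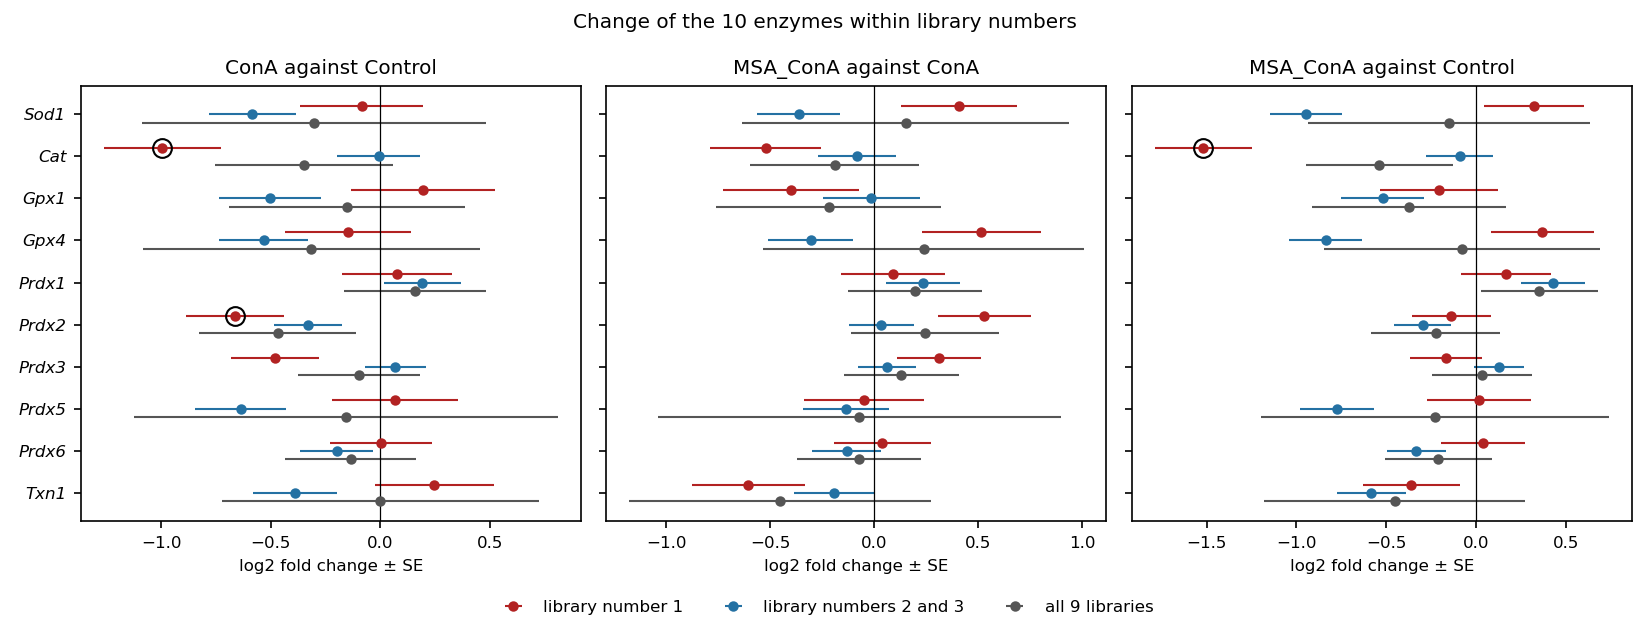
Log2 fold change ± SE of each enzyme in the 3 comparisons, with TMM. Points show number 1 (red), numbers 2 and 3 (blue) and all 9 libraries (grey), and black rings mark an adjusted p under 0.05. Rings stand only at Cat (-1.0 and -1.52) and Prdx2 (-0.66) in number 1, and the blue points of Sod1, Gpx4 and Prdx5 lie left of 0 while those of Prdx1 lie right of it.

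The genes around the 10 enzymes were read from lists of their partners, substrates and regulators. Over all 9 libraries, and within numbers 2 and 3, none of their tested genes was called in any of the 3 comparisons. In number 1 the counts below stand against a high background: with TMM 21% of all tested genes were called higher and 21.1% lower in ConA against Control, and 13.2% higher and 15.2% lower in MSA_ConA against ConA. With library totals these shares were 12.7% and 34.5%, then 8.97% and 19.8%. Among the 10 enzymes in number 1, 0 rose and 2 fell in ConA against Control (2 of 10, beside 42.0% of all genes, and a median of -0.04, beside -0.06), and none was called in MSA_ConA against ConA (beside 28.4% of all genes, and a median of 0.06, beside 0.00).

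Reducing partners, which recharge thioredoxin, glutathione and peroxiredoxins, had 8 of 10 tested genes up and 1 down in ConA 1 (median 1.30), beside 42.0% of all genes called. Srxn1, the sulfiredoxin that repairs overoxidized peroxiredoxins, measured 66.8 CPM in Control 1, 601 CPM in ConA 1 and 35.2 CPM in MSA_ConA 1, a rise of 3.17 (SE 0.22, edgeR adjusted p = 0.000148) in ConA; in MSA_ConA against ConA it fell by 4.09 (SE 0.23, adjusted p = 0.000126). Gsr, glutathione reductase, measured 41.6, 160 and 42.9 CPM in the same libraries. In the 6 other libraries Srxn1 stayed within 33.0 to 38.3 CPM and Gsr within 30.5 to 42.7 CPM. The list's 8 also hold Txnip, which inhibits thioredoxin, and Sesn2, a sestrin; in MSA_ConA against ConA 0 rose and 2 fell (Srxn1 and Gsr; median -0.49).

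Glutathione synthesis had 3 of 5 tested genes up in ConA 1 and none down (median 2.25), beside 21% of all genes called higher. They were Gclc, the catalytic subunit of the rate-limiting ligase (186, 884 and 42.6 CPM in Control 1, ConA 1 and MSA_ConA 1), Slc7a11, the cystine carrier (0.373, 19.1 and 1.06 CPM), and Chac1, which degrades glutathione rather than making it (1.86, 40.6 and 75.7 CPM). In MSA_ConA against ConA 3 fell, namely Gclc, Slc7a11 and Gclm (median -1.13).

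The NRF2 reference genes had 7 of 9 tested genes up and none down in ConA 1 (median 1.65), beside 21% of all genes called higher, and 8 of 9 down in MSA_ConA against ConA (median -1.73), beside 15.2% of all genes called lower. Hmox1, heme oxygenase, measured 19.0, 3526 and 152 CPM in Control 1, ConA 1 and MSA_ConA 1, against 13.1 to 18.8 CPM elsewhere. Prdx1 and Txn1, members that NRF2 is also known to induce, measured 561 against 532 CPM and 459.5 against 387 CPM in ConA 1 and Control 1, and neither passed the test. With library totals their differences were -0.42 and -0.25. With library totals the rises of Nfe2l2, Keap1, Sesn1 and Txnrd3 in ConA 1 and of Prdx4 in MSA_ConA 1 no longer passed, while no called gene of any list changed sign.

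The other members of the enzyme families had 0 up and 2 down of 7 tested in ConA 1 (a share below the 42.0% of all genes; median -0.71) and 3 up in MSA_ConA against ConA (median 0.84). Txn2, mitochondrial thioredoxin, measured 264, 143 and 364 CPM in Control 1, ConA 1 and MSA_ConA 1, and Prdx4, the peroxiredoxin of the endoplasmic reticulum, 111, 67.9 and 122 CPM. Selenoprotein synthesis and copper loading, which Gpx1, Gpx4 and Sod1 depend on, had 7 tested genes. Their median in ConA 1 was -0.48 with TMM and -0.97 with library totals. Pstk, Sepsecs and Eefsec, all of the selenocysteine pathway, were lower there. In MSA_ConA against ConA the median was 0.30 with TMM and 0.06 with library totals. NADPH supply, with 10 tested genes, had a median in ConA 1 of -0.12 with TMM and -0.61 with library totals. Among its genes Pgd was higher, and Idh1 and Mthfd1 were lower. Library totals moved the median of all genes down in this comparison too.

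**Figure D4:**
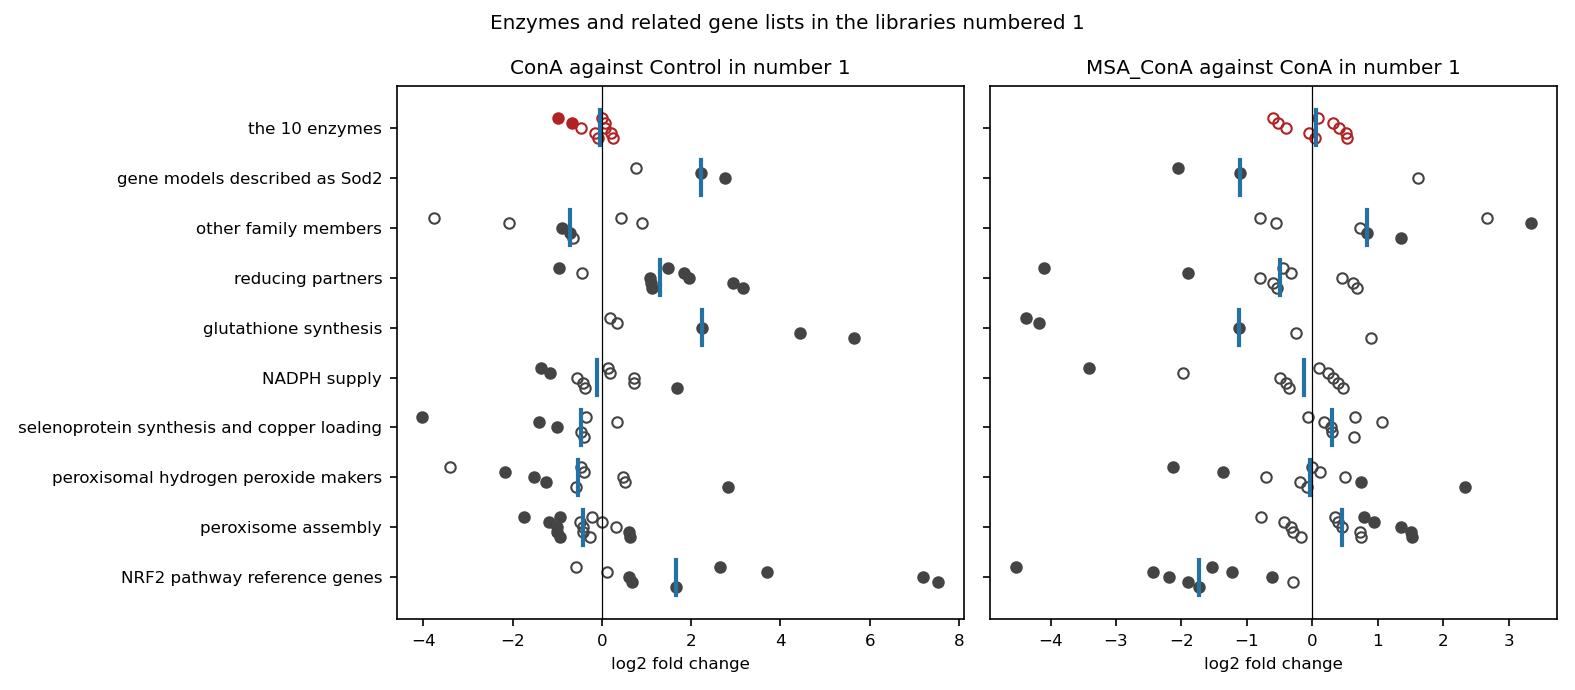
Log2 fold change (horizontal axes) of each tested gene of the enzymes and related lists in the libraries numbered 1, for ConA against Control (left) and MSA_ConA against ConA (right); filled points have an adjusted p under 0.05, and blue bars are list medians. The 10 enzymes (top row, red) lie between -1.0 and 0.25 on the left, where the medians of reducing partners, glutathione synthesis and NRF2 reference genes are 1.30, 2.25 and 1.65.

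The genes whose levels ran most like those of a member were found by Pearson's r of log2 CPM over the 9 libraries, among 13027 other named genes. Because the libraries fall into 2 sets, this r mostly follows the division for members such as Sod1 and Gpx4, whose number classes did not overlap with TMM. For Cat, whose highest and lowest values both lay in number 1, this r rests largely on the 3 single livers of that number. The r within the 6 libraries numbered 2 and 3 is given beside it, without a test. For Sod1 the nearest was Ndufs6, a respiratory chain subunit (r = 0.998, and 0.986 in the 6). For Gpx4 it was Ndufa3, another respiratory chain subunit (0.994 and 0.971). For Cat it was Nipal3 (0.989 and 0.898), followed by Hal, histidine ammonia-lyase of the liver (0.986 and 0.927). Over 0.9 lay 826, 878 and 811 genes for Sod1, Prdx5 and Gpx4, 152 for Cat, 32 for Prdx1 and 1 for Prdx6.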

How the data were processed

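RNA from 9 livers was extracted with Trizol and made into libraries with an Illumina kit, per the labels' protocols. The authors deposited raw counts per gene and FPKM. The authors' FPKM could be recovered from their counts, the listed gene lengths and a constant for each library that acts as an effective total (7434350 to 20151368). Per the submitters' processing notes, tools and builds include Bowtie 0.12.2, mm10 and mm8, whose roles are not stated; the counting tool is not given in the sources used here. The M columns were taken as MSA_ConA from that initial. The labels' batch tag repeats the group.

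From the deposited counts, CPM scaled by TMM were computed, and edgeR 4.0.16 (R 4.3.3) quasi-likelihood tests were run on the 14603 genes passing its default filter, with Benjamini-Hochberg adjustment at 0.05. The group fit had 6 residual degrees of freedom. A second fit with 1 mean for each group and number class had 3, so a lone library numbered 1 is assumed to vary like numbers 2 and 3. The number contrast over all groups came from a fit with group and number class as terms (5 residual degrees of freedom). The labels name 3 mice per group; p-values therefore rest on the spread of these livers. Scripts were tested on simulated counts. Totals of 13294600 to 17276391 counts limit precision; a floor of 3 counts equals 0.155 to 0.396 CPM.

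Same-numbered libraries of different groups correlated in their deviations from group means across genes. The r was 0.489 to 0.720 (number 1), 0.364 to 0.575 (number 2) and 0.337 to 0.493 (number 3), all over the bound of 0.1 set for pairing. Between numbers 2 and 3 the range was 0.332 to 0.706, and between number 1 and the others -0.691 to -0.394. These r thus set number 1 apart, and they do not show that number 2 is paired apart from number 3.

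The members, lists and number classes were chosen with earlier results of these data known. Named are all members, for each list up to 3 called genes with the smallest p in the contrast described, and of the 2 genes nearest to each member those of 3 members. Chosen after their values were seen were the models described as Sod2, Xist, Nnt, Txnip and the genes whose calls depend on scaling. Some genes that this rule names are not reported here. Gpx2, Txnrd1, Glrx3, Sephs2, Selenop and Ftl1 are not analysed here. As alternatives, counts were also tested with DESeq2 1.42.0 and with limma 3.58.1 (voom), with other scalings (relative log expression, library totals), with no filter or a minimum CPM of 1 in 3 libraries, at an adjusted p of 0.01, with the number as a block, on fewer libraries or groups, and without each library; deposited FPKM were tested with limma as log2(FPKM + 1) and log2(FPKM + 0.1).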

Additional observations from a re-analysis of the deposited data

How the results depend on the processing

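Across the alternatives, 1808 member values kept direction and side of the threshold, 127 changed sign while called in neither, 24 gained and 29 lost a call, and 2 were reversed, both with library totals: Prdx6 in MSA_ConA against Control in number 1 (-0.69) and Prdx2 in number 1 against numbers 2 and 3 (-0.12). Over 22 alternatives no member was called between the 3 groups (smallest adjusted p 0.414, 0.917 and 0.0823 for ConA against Control, MSA_ConA against ConA and MSA_ConA against Control).

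With the replicate number as a block, 0 genes were called in each of the 3 group comparisons, and the block changed no call in them. DESeq2 called 2 genes in ConA against Control and 55 in MSA_ConA against Control; in numbers 2 and 3 it called 24 (ConA against Control), 2 (MSA_ConA against ConA) and 690 (MSA_ConA against Control), and no filter gave 61, 3 and 1009, in place of 0. Limma-voom called 1623 genes in the difference of the MSA effect in place of 2724. At an adjusted p of 0.01 the counts were 3288, 1663 and 3106 in number 1 (ConA against Control, MSA_ConA against ConA, MSA_ConA against Control), 1864 and 783 for the differences of the ConA and MSA effects, 2513 for the number contrast and 1340 for it in Control. Leaving out 1 library gave 0 to 4, 0 to 92 and 0 to 396 genes in the 3 comparisons within numbers 2 and 3 (highest without ConA 3, MSA_ConA 2 and MSA_ConA 2), 1368 to 2403 for the difference of the MSA effect (lowest without ConA 3), 1340 to 4238 for the number contrast in Control (lowest without Control 3) and 4016 to 8145 for it over all groups. The causes were not tested.

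Limits: a contrast in number 1 compares single livers with a spread borrowed from numbers 2 and 3. Calls of Cat, Gpx1, Prdx1, Prdx2, Prdx3, Prdx6 and Txn1 depend on the scaling in some comparisons. In MSA_ConA against Control in number 1, the median of the 10 members was -0.79 with library totals and -0.06 with TMM. Library totals gave Txn1 -1.09, Gpx1 -0.94, Prdx3 -0.90, Prdx2 -0.87 and Prdx6 -0.69 on the log2 scale. With TMM these genes stood at -0.36, -0.20, -0.17, -0.14 and 0.04. How far the members fell there thus depends on the scaling. Every member held at least 867 counts in each library.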

Other observations

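Because Cat works in the peroxisome, genes that make hydrogen peroxide, not all of them peroxisomal, and peroxisome assembly factors were also read. Among 10 tested genes that make hydrogen peroxide, the median log2 difference of ConA 1 against Control 1 was -0.53 with TMM, beside -0.06 for all genes. With library totals the median of the 10 was -1.02. Xdh, xanthine dehydrogenase, is mainly an enzyme of the cytosol that can form superoxide and peroxide. It measured 126, 892 and 205 CPM in Control 1, ConA 1 and MSA_ConA 1 and 84.5 to 114 CPM in the 6 others. Ddo, the D-aspartate oxidase, and Pipox, the pipecolate oxidase, were lower in ConA 1 by 2.17 and 1.25 on the log2 scale (edgeR adjusted p = 0.0012 and 0.0049).

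The 15 peroxisome assembly genes had a median in ConA 1 against Control 1 of -0.43 with TMM and -0.93 with library totals. In MSA_ConA 1 against ConA 1 the median was 0.45 with TMM and 0.21 with library totals. Pex16, Pex3 and Abcd3 were among the genes higher in MSA_ConA 1. The rises of Pex13 in MSA_ConA 1, and of Pex6 and Pex11a in ConA 1, depended on TMM. Each of these comparisons rests on 1 liver per group.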
